A study of Homo sapiens with 12 samples.

Results

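AC16 cells exposed to 0.1 µM doxorubicin for 4 days were compared with cells exposed for 2 days, gene by gene, in 3 sequencing libraries of messenger RNA per group. These 6 libraries are 6 of the 12 in the series, and 17320 of the 60607 genes in the count table had enough reads to be tested. Every gene that changed was then placed against the control group (3 libraries of cells in plain DMEM medium). Genes returning to the control level could so be told from genes that passed it or newly differed from it. AC16 is an established human line derived from adult ventricular heart tissue by fusion with a transformed fibroblast, labelled here as wild type cardiomyocytes, and all groups are this 1 line. The groups carried no other agent. In the titles the exposures are written as 48 and 96 hours, and that of the third doxorubicin group, called day 6 here after its description, as 112 hours and not 6 full days. Every title, the control's included, carries the word Day6, and no label says whether the drug was still present at harvest. Here day 2 and day 4 mean the length of exposure of different cultures. The labels do not tie the 3 libraries of a group to independent cultures, so every p-value here rests on the spread between libraries, which may be technical.

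Doxorubicin is an anthracycline that holds topoisomerase II on cut DNA, and the breaks activate the kinases that stabilise p53. p53 in turn switches on an arrest and death programme that includes CDKN1A (p21), a cyclin-dependent kinase inhibitor, and MDM2, the ligase that degrades p53. Damaged DNA that reaches the cytosol can start interferon-type transcription through IRF factors, and arrested cells can secrete NF-kB-driven cytokines and chemokines. ATF4 is the factor of the integrated stress response, and it drives genes of amino acid uptake and synthesis.

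The promoters of 5 genes that stand for the main patterns are printed first, as background to the values. The interferon response element searched was TTTC, any 2 bases and TTTC again. The NF-kB type motif was GGGA, any 4 bases and CC, and the ATF4 type motif was TGATGNAA, where N is any base. Each was searched on both strands, in windows of 300 bases (250 before to 50 after the start) from RefSeq, build GRCh38.p14. Each line runs 5′ to 3′ on the + strand from 200 bases before to 10 after the start, and capitals mark every match. ISG15 (chr1:1013297-1013506) and IFIT3 (chr10:89327797-89328006) are interferon-induced genes that fell steeply between day 2 and day 4, and IFIT5 (chr10:89414368-89414577), from the same family, is shown because it did not pass the test. CXCL8 (chr4:73740369-73740578) is a chemokine that rose, and ATF3 (chr1:212565207-212565416) is a stress-induced factor that fell. The motif matches of ISG15 overlap each other.
ISG15: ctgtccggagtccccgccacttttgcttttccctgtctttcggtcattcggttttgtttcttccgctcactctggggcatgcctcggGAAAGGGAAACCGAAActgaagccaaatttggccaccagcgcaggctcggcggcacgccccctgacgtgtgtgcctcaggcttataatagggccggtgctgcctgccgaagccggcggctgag
IFIT3: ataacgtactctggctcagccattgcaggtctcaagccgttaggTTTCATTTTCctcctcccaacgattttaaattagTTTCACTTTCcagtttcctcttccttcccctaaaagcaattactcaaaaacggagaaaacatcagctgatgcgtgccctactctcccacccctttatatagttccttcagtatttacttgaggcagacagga
IFIT5: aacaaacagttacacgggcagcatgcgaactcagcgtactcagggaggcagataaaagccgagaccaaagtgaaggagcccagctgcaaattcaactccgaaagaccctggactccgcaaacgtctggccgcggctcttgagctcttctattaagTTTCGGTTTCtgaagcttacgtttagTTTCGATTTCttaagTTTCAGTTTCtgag
CXCL8: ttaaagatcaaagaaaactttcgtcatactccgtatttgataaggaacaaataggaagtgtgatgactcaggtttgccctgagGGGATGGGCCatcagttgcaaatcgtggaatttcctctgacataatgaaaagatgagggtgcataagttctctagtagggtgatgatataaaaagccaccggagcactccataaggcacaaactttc
ATF3: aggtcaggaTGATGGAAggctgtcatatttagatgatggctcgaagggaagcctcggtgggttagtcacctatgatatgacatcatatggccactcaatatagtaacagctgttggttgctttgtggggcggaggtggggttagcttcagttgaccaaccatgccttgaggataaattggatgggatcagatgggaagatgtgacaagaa

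The interferon motif was present in 25 of the 41 interferon-stimulated genes with a window (61.0%), against 340 of the 11725 windows of all tested genes (2.90%). Of those 25 genes 18 fell between day 2 and day 4 and none rose, and of the 16 without the motif 11 fell and none rose. IFIT5 carried 3 matches, starting 45, 19 and 4 bases before the start, while its level was 25.3, 21.2 and 30.1 CPM at day 2 and 24.5, 24.4 and 26.6 CPM at day 4. The NF-kB type motif was found in 21 of 34 NF-kB and cytokine genes (61.8%), against 30.6% of all windows, and 10 of these 21 rose and 7 fell. Of the 13 without it 7 rose and 4 fell. The ATF4 type motif was found in 7 of 32 ATF4-response genes (21.9%) against 1.82% of all windows, and 6 of the 7 fell, as did 18 of the 25 without the motif. The CHR motif TTTGAA of cell cycle promoters was found in 32 of 46 mitotic genes (69.6%) against 10.2% of all windows, and 19 of the 32 rose and 2 fell. Of the 14 mitotic genes without it 4 rose and 2 fell. Over all tested genes 16.3% rose and 18.5% fell. A match describes the letters in the window and is no evidence of binding. An unmarked stretch, such as tggaatttcc in the CXCL8 line, is likewise no evidence that a site is absent.

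Levels are given as normalised CPM (library counts scaled to a common total with TMM factors), library by library in the order of replicates 1, 2 and 3, and differences as log2 fold changes of day 4 against day 2 ± SE. Adjusted p-values are from edgeR's quasi-likelihood test with Benjamini-Hochberg adjustment over all 17320 genes, and a gene was called changed at an adjusted p under 0.05. Total counts lay between 15579624 and 21226441 in the day 2 libraries and between 16997530 and 18184315 at day 4. Mitochondrial genes took 7.62%, 7.74% and 5.51% of counts at day 2 and 8.01%, 8.34% and 8.06% at day 4. On principal component 2 (25.8% of the variance), day 2 lay between 46.9 and 49.7 and day 4 between -22.8 and -16.6, so the groups did not overlap. The 13 markers fixed for cardiomyocytes summed to 1.37 to 1.92 CPM at day 4, with none over 1 CPM in any group and 1 at 0 in all libraries, which goes against the labelled cell type. Fibroblast markers summed to 12281 to 12533 CPM at day 2 and 10486 to 11001 CPM at day 4, and endothelial markers to 25.5 to 29.3 and 28.6 to 30.6 CPM. The fibroblast sum hides opposite moves. Of its 13 markers 9 were lower at day 4 and 1 higher (18.5% and 16.3% of all genes), with a median log2 fold change of -0.70. VIM went from 3226, 3250 and 3104 CPM at day 2 to 4852, 4471 and 4799 CPM at day 4. In such bulk RNA, fewer cells of a type and less RNA per cell cannot be told apart.

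Between day 2 and day 4, 6031 of the 17320 genes changed (34.8% of all tested). Of these 2828 were higher at day 4 (16.3%) and 3203 were lower (18.5%), and 1250 changed at least 2-fold (7.22%), 506 upward and 744 downward. The libraries of the groups did not overlap for 7948 genes (45.9%). With libraries scaled by their totals alone the split was 3842 higher and 2443 lower (61.1% higher, against 46.9%), with a median of all genes of 0.09 on the log2 scale in place of 0.00. Required to exceed 1.5-fold by glmTreat, 326 genes were higher and 702 lower.

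Each changed gene was given a class from its level against the control at day 2 and day 4. Day 2 differed from the control for 8180 genes (47.2%) and day 4 for 6321 (36.5%). A gene had returned if it differed from the control at day 2, moved back, and at day 4 neither differed from the control nor lay beyond 1.5-fold of it. There were 2286 such genes, 37.9% of those that changed, with 1184 climbing back from below and 1102 coming down from above. A further 1192 (19.8%) were part way back, which means still past the threshold on the same side of the control. Another 267 genes (4.43%) passed the control level and differed from it on the other side. They made up 126 of the 1250 genes with at least a 2-fold change (10.1%). A larger change is built into this class, since its genes must differ from the control on both sides. Another 416 (6.90%) moved further away, and 1097 (18.2%) differed from the control at day 4 but were not called at day 2. The other 773 (12.8%) belonged to none of these classes. Without control replicate 1, 67 genes passed the control upward in place of 107, and without any 1 of the control libraries between 532 and 559 genes higher at day 4 belonged to no class, in place of 354. Downward, 107 genes passed the control without control replicate 1 and 111 without control replicate 3, in place of 160. Genes lower at day 4 in no class were 622, 527 and 578 without control replicates 1, 2 and 3, in place of 419. The 3 comparisons behind the classes share libraries, so the counts describe the genes and carry no test. Among genes with at least 10 CPM, just inside the 1.5-fold limit (0.58 on the log2 scale) lay CDK18 at 0.50 above the control and SYNPO2L at 0.48, and just outside it lay MX1 at 0.60.

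**Figure D1:**
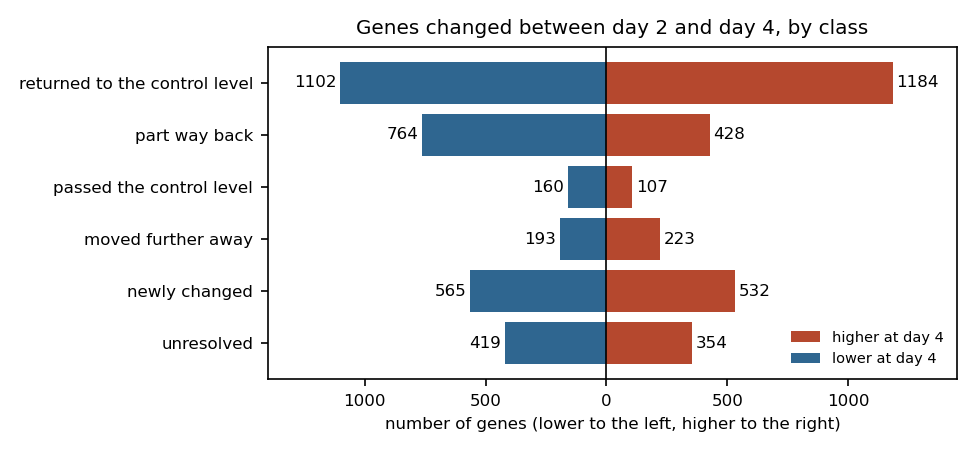
Number of genes in each class among the 6031 genes changed between day 2 and day 4, with genes lower at day 4 to the left and genes higher at day 4 to the right of 0. Returned genes form the longest bars, 1184 and 1102, and genes that passed the control level the shortest, 107 and 160.

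The levels of the day 6 group did not define the classes, though its 3 libraries shared the filter and the estimate of spread with the others. By the hours in the titles this group had 112 hours of exposure against 96 at day 4. With these libraries left out of the fit, 1173 genes had returned upward and 1042 downward. Genes that had returned upward had a median of -0.59 against the control at day 2, -0.04 at day 4 and -0.03 at day 6, and those that had returned downward stood at 0.57, 0.03 and 0.03. At day 6, 881 of the 1184 and 823 of the 1102 returned genes did not differ from the control. Of the 160 genes that had passed the control downward, 128 were also below it at day 6 and 2 above, with medians of 0.48, -0.49 and -0.54 at the 3 times. Of the 107 that had passed it upward, 84 were above the control at day 6 and none below. Newly raised genes were above it in 431 of 532 cases and newly lowered genes below it in 489 of 565, where 43.7% of all tested genes differed from the control in either direction. These day 6 values are set against the same 3 control libraries.

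**Figure D2:**
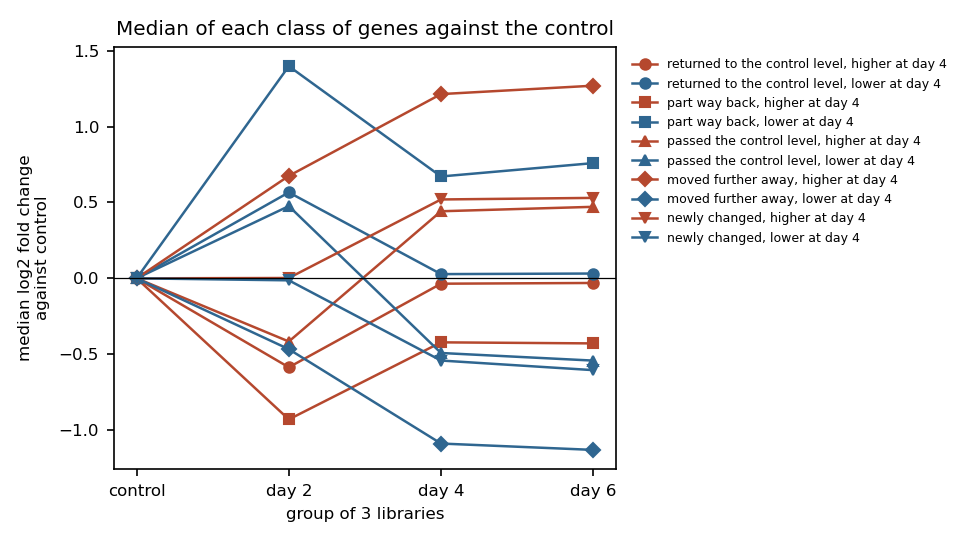
Median log2 fold change against the control (vertical axis) of the genes in each class in the control, day 2, day 4 and day 6 groups, with red for classes higher at day 4 than at day 2 and blue for classes lower. By the class rules, the lines of returned genes lie near 0 at day 4, and those of the genes that passed the control cross 0 between day 2 and day 4. At day 6, which did not define the classes, the lines of returned genes lie at -0.03 and 0.03.

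The genes given below for each class were chosen for no overlap between day 2 and day 4 libraries. Their separation between those groups was thus fixed by the choice. Among returned genes with at least 10 CPM at day 2 or day 4, the largest fall was in MEST (chr7:130486171-130506465, + strand), an imprinted gene of mesoderm. MEST lay at 460.1, 378 and 451 CPM at day 2, at 95.4, 88.4 and 96.8 CPM at day 4 and at 92.1, 90.7 and 110.4 CPM in the control. The day 4 libraries thus overlapped the controls and lay clear of day 2, and the fall was 4.59-fold (log2 -2.20 ± 0.09, edgeR adjusted p = 1.28e-14). MEST overlaps COPG2 on the opposite strand, and since the strand setting of the counting is not given in the sources used here, their reads cannot be told apart. EDN1, which encodes the vasoconstrictor peptide endothelin-1, went from 64.4, 43.4 and 57.8 CPM to 11.5, 11.6 and 13.8 CPM, beside 11.8, 10.6 and 12.6 CPM in the control, a fall of 4.49-fold (log2 -2.17 ± 0.13, edgeR adjusted p = 5.00e-12). IFIT1, an interferon-induced RNA-binding protein, went from 65.1, 52.8 and 57.3 CPM to 14.7, 12.4 and 13.6 CPM (log2 -2.11 ± 0.12, edgeR adjusted p = 2.08e-12). The fourth, LBH, a transcription cofactor of limb and heart development, went from 11.3, 11.02 and 13.5 to 2.71, 3.3 and 2.36 CPM (log2 -2.10 ± 0.17, edgeR adjusted p = 1.33e-09).

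The genes that climbed back to the control level were led by CCNE2, the cyclin E2 that drives entry into S phase. It was read at 10.3, 6.57 and 12.1 CPM at day 2 and 35.6, 38.99 and 30.7 CPM at day 4, where the control had 43.4, 33.3 and 45.5 CPM. No day 2 library reached the lowest day 4 library, which the choice of genes required, and the rise was 3.602-fold (log2 1.85 ± 0.16, edgeR adjusted p = 1.98e-08). CCNE2 overlaps INTS8 on the opposite strand. LRRCC1, a centrosomal protein, rose from 4.33, 4.79 and 4.56 to 16.9, 16.5 and 15.5 CPM (log2 1.84 ± 0.13, edgeR adjusted p = 6.06e-11), which placed it beside the controls at 15.7, 16.3 and 15.5 CPM. TMPO-AS1, an RNA that overlaps TMPO on the opposite strand, rose by 1.79 ± 0.17 on the log2 scale. MSR1, a scavenger receptor better known from macrophages, rose from 4.28, 3.29 and 4.26 to 13.1, 11.8 and 9.28 CPM (log2 1.51 ± 0.17, edgeR adjusted p = 1.98e-07).

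Genes that passed the control level changed direction outright, and SLC12A8 (chr3:125082636-125212864, - strand), a membrane transporter of the cation-chloride cotransporter family, moved most among those with at least 10 CPM. SLC12A8 was 26.9, 33.3 and 26.4 CPM at day 2 and 2.998, 3.84 and 3.51 CPM at day 4, while the control lay between the groups at 14.2, 13.4 and 14.9 CPM. Every day 2 library was above every control and every day 4 library below, and the fall was 8.35-fold (log2 -3.06 ± 0.15, edgeR adjusted p = 9.26e-14). OLR1, the receptor for oxidised LDL, went the same way from 119.8, 117 and 117 CPM to 21.2, 21 and 17.5 CPM around a control of 69.3, 75.6 and 78.3 CPM (log2 -2.57 ± 0.09, edgeR adjusted p = 5.67e-16). DEPTOR, an inhibitor of mTOR kinase, went from 25.6, 30.3 and 26.6 to 4.24, 6.06 and 4.501 CPM around 13.5, 10.9 and 14.7 CPM (log2 -2.48 ± 0.14, edgeR adjusted p = 2.15e-12). For SCN3A, a sodium channel subunit, the levels were 15.02, 17.8 and 16.2 and 3.34, 3.12 and 3.46 CPM around 8.17, 4.203 and 7.73 CPM (log2 -2.30 ± 0.18, edgeR adjusted p = 6.03e-10).

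In the opposite direction RFX8, a member of the RFX family of transcription factors, was 7.11, 8.15 and 4.26 CPM at day 2, below the control at 16.9, 14.1 and 15.1 CPM, and 57.4, 48.6 and 48.9 CPM at day 4. Its rise of 7.95-fold (log2 2.99 ± 0.15, edgeR adjusted p = 3.36e-13) was the largest among the genes with at least 10 CPM that passed the control upward. ABI3BP (chr3:100749156-100993515, - strand), a matrix protein, stood at 182, 241 and 186 CPM at day 2 and 1224, 1461 and 1247 CPM at day 4, with the control at 256, 245 and 249 CPM. The day 4 libraries stood far above both other groups, which reached 256 CPM at most, a rise of 6.46-fold (log2 2.69 ± 0.10, edgeR adjusted p = 2.26e-15). SFRP1, a secreted inhibitor of Wnt signalling, rose from 34.1, 32.1 and 36.03 to 108, 119 and 115 CPM around 67.7, 59.9 and 63.02 CPM (log2 1.74 ± 0.08, edgeR adjusted p = 9.26e-14). VEPH1 rose from 25.6, 20.1 and 20 to 68.8, 74.2 and 70.4 CPM (log2 1.69 ± 0.10, edgeR adjusted p = 1.31e-12), with 1 day 2 library inside the control range of 25.5 to 27.0 CPM, and it overlaps PTX3 on the opposite strand.

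Newly changed genes were not called different from the control at day 2 and were at day 4. No fold limit was set at day 2 for this class. SLC7A5 (chr16:87830023-87869488, - strand), the light chain of the LAT1 transporter of large neutral amino acids, had 431, 449 and 444 CPM in the control and 467, 457 and 499 CPM at day 2, then 111, 113 and 135 CPM at day 4. All day 4 libraries were far under the other groups, and the fall was 3.96-fold (log2 -1.99 ± 0.08, edgeR adjusted p = 1.28e-14). NUPR1, a stress-induced nuclear protein, went from 33.5, 33.6 and 34.5 to 10.6, 9.06 and 7.795 CPM (log2 -1.89 ± 0.15, edgeR adjusted p = 2.20e-09). SLC38A4, an amino acid transporter, fell by 1.68 ± 0.16 on the log2 scale, and CYP24A1, the enzyme that inactivates vitamin D, fell by 1.62 ± 0.14.

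Upward, NT5E, the surface enzyme CD73 that makes adenosine, had 103, 94.2 and 90.4 CPM in the control, 106, 96.3 and 98.2 CPM at day 2 and 326, 348 and 330.3 CPM at day 4. Its groups at day 2 and control overlapped, day 4 lay apart from both, and the rise was 3.34-fold (log2 1.74 ± 0.08, edgeR adjusted p = 2.25e-14). IL24, a cytokine of the IL-10 family, went from 5.49, 6.37 and 4.204 to 25.1, 23.6 and 20.5 CPM (log2 2.11 ± 0.22, edgeR adjusted p = 2.49e-06). PLAU, the urokinase that activates plasminogen, went from 14.3, 10.9 and 16.04 to 42.3, 37.6 and 34.7 CPM (log2 1.47 ± 0.14, edgeR adjusted p = 3.12e-08). SLC8A1-AS1, which overlaps the sodium-calcium exchanger gene SLC8A1 on the opposite strand, rose from 2.82, 2.74 and 2.703 to 18.9, 20.04 and 18.2 CPM (log2 2.78 ± 0.14, edgeR adjusted p = 3.21e-13).

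**Figure D3:**
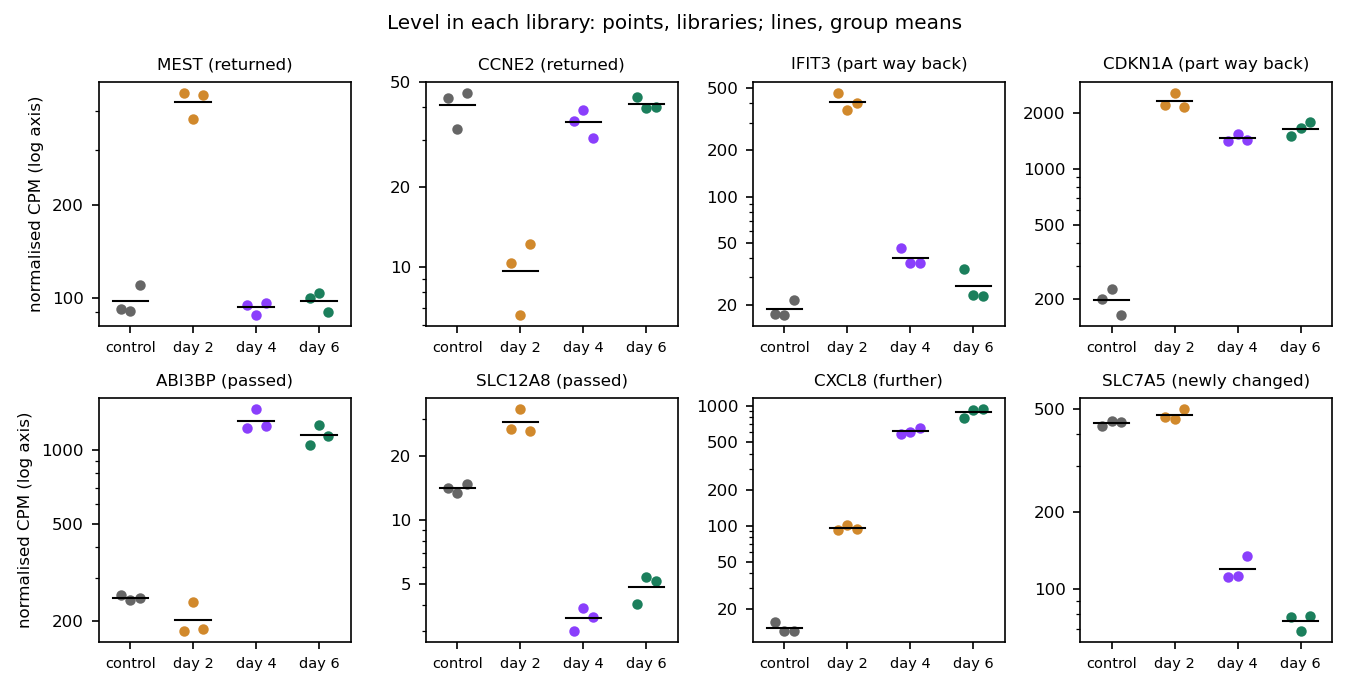
Level of 8 genes in each of the 12 libraries as normalised CPM on a log axis, with points for libraries and lines for group means. MEST and CCNE2 at day 4 overlap the controls, and ABI3BP and SLC12A8 lie on the other side of the controls from day 2. SLC7A5 at day 4, with 111, 113 and 135 CPM, lies below the control and day 2 libraries.

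Among genes with at least 10 CPM that moved further away upward, the largest rise was in CSF3 (chr17:40015361-40017813, + strand), the granulocyte colony-stimulating factor. It went from 0.706, 0.479 and 0.721 CPM at day 2 to 14.9, 13.98 and 15.2 CPM at day 4. The groups lay far apart, and the rise was 22.5-fold (log2 4.49 ± 0.25, edgeR adjusted p = 1.33e-12). CSF2, the granulocyte-macrophage factor, had 0 counts in every control library, 2.67, 3.29 and 4.504 CPM at day 2 and 36.2, 29.3 and 54.5 CPM at day 4 (log2 3.53 ± 0.25, edgeR adjusted p = 1.80e-07). MIR3142HG, the host RNA of a microRNA, went from 1.36, 1.301 and 1.32 to 18.8, 13.5 and 11.6 CPM (log2 3.45 ± 0.22, edgeR adjusted p = 1.46e-11). ESM1, a proteoglycan secreted by endothelium, went from 7.21, 4.59 and 5.34 to 43.4, 44.8 and 58.3 CPM (log2 3.07 ± 0.16, edgeR adjusted p = 8.69e-13).

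Downward, HES1, the repressor induced by Notch, was 16.5, 20.2 and 17.9 CPM in the control, 13.6, 9.24 and 12.4 CPM at day 2 and 1.36, 2.04 and 3.07 CPM at day 4. The groups descended in that order without overlap, and the last step was 5.43-fold (log2 -2.44 ± 0.21, edgeR adjusted p = 2.06e-09). SLC7A11, the cystine importer that feeds glutathione synthesis, went from 49.1, 52.2 and 72.1 to 10.5, 14.8 and 10.7 CPM, from 218, 142 and 226 CPM in the control (log2 -2.27 ± 0.22, edgeR adjusted p = 4.55e-06). EFEMP1, a matrix glycoprotein, fell by 1.75 ± 0.14 and CYP1B1, a cytochrome of steroid and xenobiotic oxidation, by 1.53 ± 0.12 on the log2 scale.

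Genes part way back upward moved less. PASK, a PAS-domain kinase, rose from 9.58, 7.804 and 10.1 to 21.3, 26.2 and 20.04 CPM, short of 33.4, 30.9 and 36.3 CPM in the control (log2 1.29 ± 0.13, edgeR adjusted p = 3.69e-08). TMEM106C rose from 55.7, 49.2 and 53.2 to 131, 125 and 116 CPM (log2 1.23 ± 0.08, edgeR adjusted p = 5.24e-11), and its day 4 libraries reached just under the control range of 133 to 159 CPM. PPP1R26 and GPR137C rose by 1.18 ± 0.15 and 1.17 ± 0.14. PASK overlaps PPP1R7 on the opposite strand. The class holds 31 genes with at least a 2-fold rise, against 199 with at least a 2-fold fall.

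The named gene lists were read against the shares of all genes, 16.3% higher and 18.5% lower. Of all genes that fell, 34.4% had returned, 23.9% were part way back, 5.00% had passed the control, 6.03% moved further and 17.6% newly differed. Of all genes that rose, these shares were 41.9%, 15.1%, 3.78%, 7.89% and 18.8%. p53 targets came down together but stayed high: 39 of 46 fell, 2 rose, and the median was -0.73, where the median of all genes was 0.00. Of the 41 that changed, 33 were part way back, and the list's median against the control was 2.25 at day 2, 1.82 at day 4 and 2.03 at day 6. CDKN1A was 2199.9, 2561 and 2139.7 CPM at day 2 and 1404, 1527 and 1430.5 CPM at day 4, with 201, 227 and 165 CPM in the control. Both groups lay far above the control, the day 4 libraries below all of day 2 (log2 -0.66 ± 0.10, edgeR adjusted p = 9.14e-06). MDM2 went from 2225, 2002 and 2453 to 1051, 1093 and 953 CPM (log2 -1.11 ± 0.09, edgeR adjusted p = 1.20e-09), and GDF15, a stress cytokine, from 124, 148 and 119 to 43.2, 51.8 and 46.9 CPM (log2 -1.46 ± 0.12, edgeR adjusted p = 1.33e-09). TP53I3, a quinone oxidoreductase, had the smallest p of the list and fell from 176, 161 and 157 to 51.9, 47.6 and 47.7 CPM (log2 -1.75 ± 0.09, edgeR adjusted p = 3.40e-13).

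PMAIP1 (NOXA), a BH3-only killer protein, and PLK2, a kinase, were the only p53 targets to pass the control level downward. PMAIP1 went from 314, 273 and 287 to 106, 98.8 and 90.9 CPM, with a control mean of 114 ± 7.49 CPM (log2 -1.57 ± 0.09, edgeR adjusted p = 8.69e-13). PPM1D (WIP1), the phosphatase that switches off damage signalling, fell from 116, 116 and 112 to 49.8, 43.98 and 48.7 CPM (log2 -1.27 ± 0.08, edgeR adjusted p = 1.44e-11). The 2 targets that rose were RRM2B, the p53-induced ribonucleotide reductase subunit, and ALDH1A3, an aldehyde dehydrogenase, by 0.34 ± 0.12 and 0.91 ± 0.12. The call of RRM2B ended without day 2 replicate 1 or 2 or day 4 replicate 1 or 2, with edgeR adjusted p-values from 0.0891 to 0.190. The apoptosis list, which shares members with the p53 list, had 16 of 38 members lower and 1 higher. No apoptosis gene was higher without day 2 replicate 1 or 2 or day 4 replicate 1, while 2 were higher without day 4 replicate 3 and 3 without control replicate 2. BAK1, a pore-forming killer protein, returned to the control level with a fall of 1.04 ± 0.09.

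Interferon-stimulated genes fell as a group: 38 of 52 fell and none rose, with a median of -0.72, and with library totals alone 1 rose. Of the 38, 16 were part way back, 12 had returned and 3 had passed the control. The share that had returned was near that of all falling genes (34.4%), where 23.9% were part way back. OASL, an oligoadenylate synthetase-like antiviral protein, went from 64.7, 50.7 and 53.6 CPM to 6.22, 4.199 and 5.16 CPM, beside 1.14, 1.77 and 2.11 CPM in the control. This fall of 10.8-fold (log2 -3.44 ± 0.15, edgeR adjusted p = 1.28e-14) was the largest of the list, and the day 4 libraries stayed above the controls. IFIT3 (chr10:89327894-89340971, + strand) went from 470.1, 362 and 399.9 to 46.7, 37.1 and 37.1 CPM over 17.3, 17.2 and 21.5 CPM (log2 -3.35 ± 0.15, edgeR adjusted p = 6.79e-11), and IFIT2, which overlaps LIPA on the opposite strand, from 309, 239.5 and 269.6 to 30.7, 24.7 and 29.3 CPM (log2 -3.27 ± 0.17, edgeR adjusted p = 1.50e-09). ISG15, a ubiquitin-like modifier, went from 92.6, 100.01 and 73.6 to 8.82, 8.82 and 12.7 CPM (log2 -3.13 ± 0.19, edgeR adjusted p = 1.33e-09). These 4 genes fell between 8.74-fold and 10.8-fold.

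The 3 interferon-list genes that passed the control were IFI16, a DNA sensor, GBP1, a guanylate-binding protein, and IRF1, an activating factor. GBP1 went from 111, 109 and 106 to 32.8, 33.5 and 31.1 CPM, under its control mean of 57.6 ± 4.802 CPM (log2 -1.74 ± 0.09, edgeR adjusted p = 2.09e-13), and IFI16 from 244, 231 and 214 to 98.2, 103 and 79.9 CPM, under 156 ± 6.38 CPM (log2 -1.29 ± 0.09, edgeR adjusted p = 5.23e-11). IRF1 fell by 1.26 ± 0.10 on the log2 scale. MX1, an antiviral GTPase, went from 11.2, 8.42 and 10.9 to 3.73, 3.84 and 2.36 CPM (log2 -1.63 ± 0.20, edgeR adjusted p = 5.29e-07). The 14 members that did not pass the test included IFIT5 (log2 -0.02 ± 0.12, edgeR adjusted p = 0.911), IRF9 and EIF2AK2, the double-stranded RNA kinase.

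The NF-kB and cytokine list split in opposite directions: 21 of 42 members rose and 14 fell, with a median of 0.42, or 0.20 with no low-count filter. Chemokines and colony-stimulating factors were among those that rose. CXCL8 (chr4:73740506-73743716, + strand), the neutrophil chemokine interleukin-8, went from 15.7, 13.3 and 13.1 CPM in the control to 92.8, 101 and 93.1 CPM at day 2 and 586, 607 and 654 CPM at day 4. Groups climbed without overlap, and day 4 was 6.43-fold above day 2 (log2 2.69 ± 0.09, edgeR adjusted p = 1.56e-16). CXCL1 went from 9.88, 10.1 and 6.61 to 51.98, 46.1 and 52.3 CPM (log2 2.50 ± 0.12, edgeR adjusted p = 2.09e-13). Its relatives CXCL2, CXCL3, CXCL5 and CXCL6 rose by 1.91 ± 0.18, 2.12 ± 0.26, 1.85 ± 0.20 and 1.44 ± 0.25, all from under 3 CPM at day 2. Among other secreted factors, IL1B rose from 653, 626 and 659 to 843, 891 and 965 CPM (log2 0.48 ± 0.09, edgeR adjusted p = 2.11e-04) and CCL2, a monocyte chemokine, from 70.7, 80.8 and 57.4 to 145, 134 and 115 CPM (log2 0.92 ± 0.10, edgeR adjusted p = 1.42e-07). ICAM1, an adhesion molecule for leukocytes, rose from 119, 135 and 119 to 228, 241 and 247 CPM (log2 0.94 ± 0.09, edgeR adjusted p = 9.31e-09). IL6 was 176, 147 and 162 CPM at day 2 and 184, 173 and 206 CPM at day 4 and did not pass the test (log2 0.21 ± 0.09, edgeR adjusted p = 0.0839).

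The members of that list that fell held the NF-kB subunits NFKB1, NFKB2 and RELB and signalling proteins of the pathway. Surface and secreted products fell too, among them the adhesion molecule VCAM1 (log2 -1.93), TNFRSF9 (log2 -1.40) and PTX3 (log2 -0.26), as did PTGS2 (log2 -0.54). Conversely, ZC3H12A and NFKBIZ, regulators within the pathway, rose by 0.78 and 0.60, so the split did not follow the kind of product. TRAF1, an adaptor of TNF receptors, went from 33.01, 25.5 and 31.5 to 5.49, 5.76 and 5.21 CPM (log2 -2.45 ± 0.15, edgeR adjusted p = 5.00e-12), and IL1A, the other interleukin-1, from 34.2, 32.6 and 35.1 to 8.31, 7.32 and 7.905 CPM (log2 -2.11 ± 0.16, edgeR adjusted p = 4.31e-10). BIRC3, an inhibitor of apoptosis, fell from 106, 104 and 109.8 to 43.1, 45.5 and 36.7 CPM (log2 -1.35 ± 0.10, edgeR adjusted p = 2.45e-10), and NFKB1 from 59.9, 58.05 and 64.8 to 34.2, 33.7 and 35.1 CPM (log2 -0.83 ± 0.10, edgeR adjusted p = 2.41e-07). The inhibitor NFKBIA was 37.2, 36.1 and 32.2 CPM and then 40.3, 38.7 and 41.6 CPM (log2 0.19 ± 0.09, edgeR adjusted p = 0.107). IL1A and IL1B thus moved in opposite directions, and 10 of the 14 that fell were part way back while 13 of the 21 that rose were moving further from the control. Over all genes, 23.9% of those that fell were part way back and 7.89% of those that rose moved further. Summed levels of immune cell markers were 8.71 to 9.86 CPM at day 2 and 11.9 to 16.03 CPM at day 4, and their part in these values was not tested. The complement and coagulation list also split, with 10 of 23 higher and 7 lower. C3, the central complement protein, rose from 114, 118 and 104 to 208, 202 and 250.4 CPM over a control mean of 2.93 ± 0.598 CPM (log2 0.98 ± 0.09, edgeR adjusted p = 7.60e-09), PLAT, tissue plasminogen activator, rose by 1.46 ± 0.09, and CD55, which shields cells from complement, fell from 159, 138 and 135 to 52.1, 51.6 and 52.1 CPM and so passed the control mean of 75.6 ± 1.75 CPM (log2 -1.47 ± 0.08, edgeR adjusted p = 1.05e-12).

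**Figure D4:**
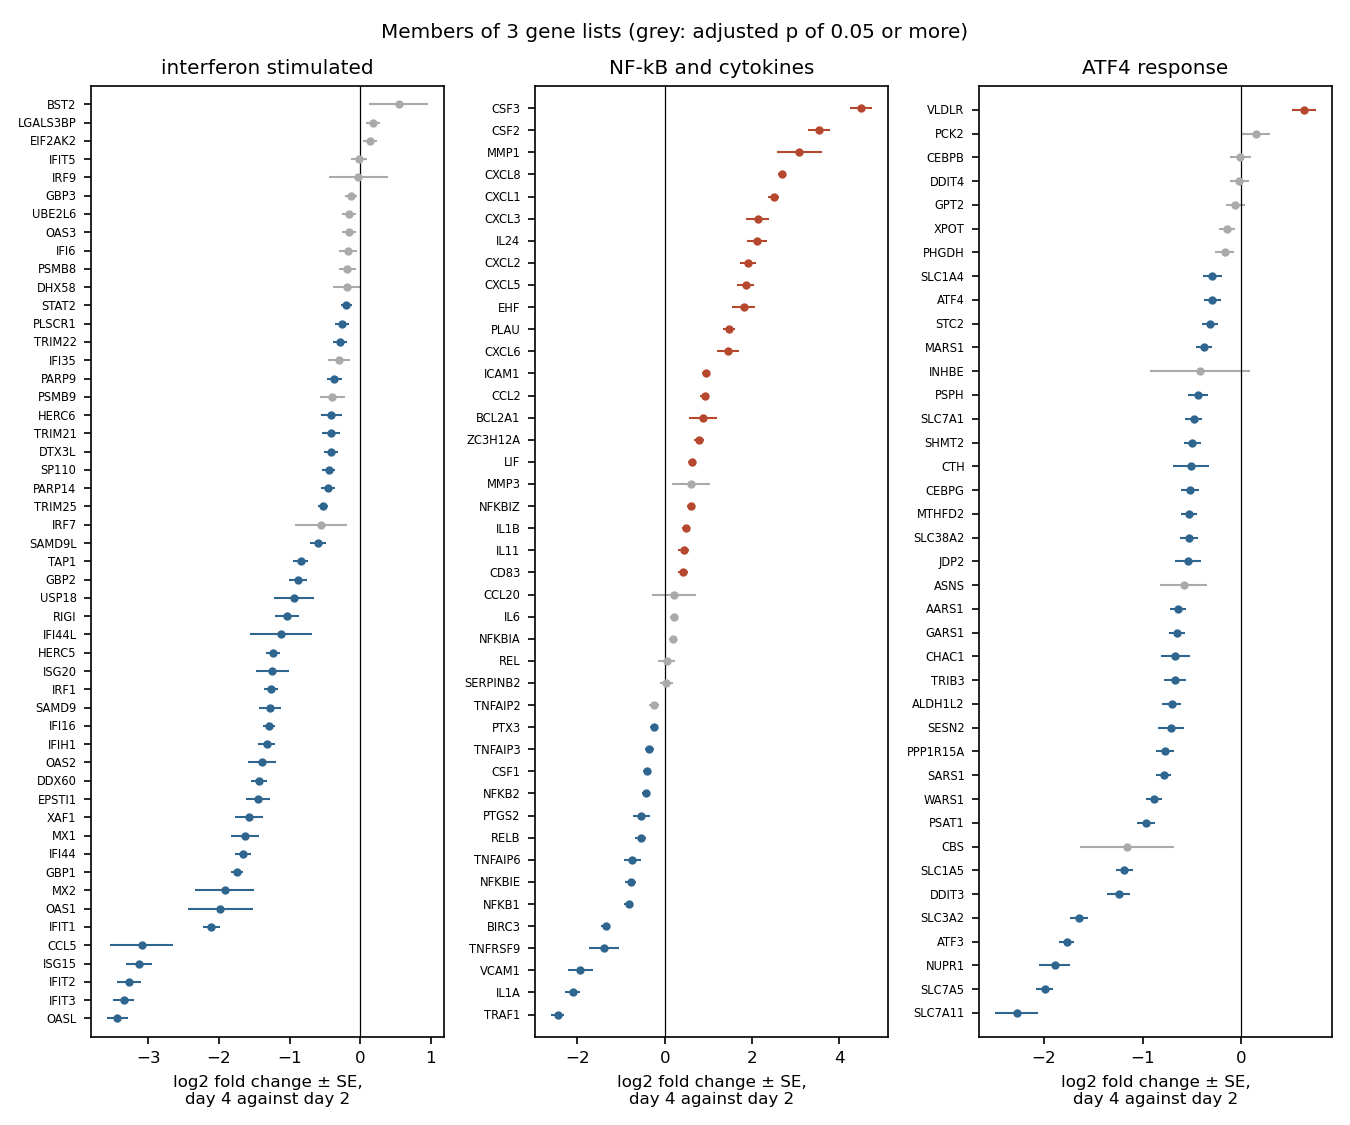
Log2 fold change of day 4 against day 2 (horizontal axis, bars are SE) for tested members of the interferon-stimulated (1 not drawn), NF-kB and cytokine, and ATF4 response lists, in red if higher, blue if lower and grey if not past the threshold. No interferon-stimulated gene is red, the NF-kB and cytokine list runs from TRAF1 at -2.45 to CSF3 at 4.49, and VLDLR is the only red member of the ATF4 list.

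Of 53 mitotic genes 25 rose, 5 fell and 23 did not pass the test, with a median of 0.20, and 20 of those that rose were part way back. The list's median against the control was -0.75 at day 2, -0.60 at day 4 and -1.01 at day 6. TOP2A, the topoisomerase that doxorubicin traps in dividing cells, was 411, 424 and 439 CPM at day 2 and 685, 688 and 627 CPM at day 4, against 997, 926 and 960.3 CPM in the control (log2 0.65 ± 0.07, edgeR adjusted p = 1.33e-07). Day 4 lay between the other groups without overlap. CDK1, the mitotic kinase, went from 105, 102 and 115 to 182, 171 and 168 CPM (log2 0.69 ± 0.08, edgeR adjusted p = 1.82e-07), KIF15, a spindle motor, rose by 0.80 ± 0.11 and NUF2, a kinetochore protein, by 0.69 ± 0.08. The 5 that fell were CDC20, CDC25B, KIF18A, KIF20A and TPX2, all further below the control. The call of KIF18A ended with library totals alone (edgeR adjusted p = 0.0709). CDC20, the activator of the anaphase-promoting complex, went from 83.97, 93.3 and 84.4 to 57.9, 58.5 and 69.99 CPM (log2 -0.49 ± 0.10, edgeR adjusted p = 2.89e-04). The kinases PLK1 and AURKA and the proliferation marker MKI67 did not pass the test. MKI67 was 474, 559.5 and 556 CPM and 547, 637 and 619.5 CPM (log2 0.18 ± 0.08, edgeR adjusted p = 0.0902), below 1184, 1101 and 1186 CPM in the control. TOP2B, the isoform of resting cells, was 186, 189 and 201 CPM and 201, 209 and 179.9 CPM (log2 0.03 ± 0.08, edgeR adjusted p = 0.809).

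Of 48 DNA replication genes 21 rose and 4 fell (median 0.18), and recombination and repair genes rose in 16 of 33 with none lower (median 0.28), or 1 lower without control replicate 2 or day 4 replicate 3. RRM2, the ribonucleotide reductase subunit of S phase, returned to the control level, from 337, 297 and 328 to 674, 659.9 and 637 CPM beside 712, 684 and 699 CPM (log2 1.03 ± 0.08, edgeR adjusted p = 1.17e-10). CLSPN, the claspin adaptor of the replication checkpoint, rose from 99.99, 81.5 and 83.8 to 197, 185 and 185 CPM (log2 1.09 ± 0.08, edgeR adjusted p = 2.13e-10) and POLD3, a polymerase delta subunit, by 0.79 ± 0.08. Among repair genes, DNA2, a nuclease of resection, went from 21.98, 21.9 and 22.9 to 35.6, 41.8 and 32.7 CPM (log2 0.72 ± 0.10, edgeR adjusted p = 4.99e-06). The Fanconi anaemia genes FANCA, FANCD2 and FANCG rose by 0.69 ± 0.08, 0.57 ± 0.08 and 0.68 ± 0.09. The mitotic and repair lists held no member with a 2-fold change, and the replication list held 4. Replication-dependent histone genes, many of whose messages lack a poly(A) tail, had 8 of 21 tested members lower and none higher.

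Of the list of CDK inhibitors and senescence genes 12 of 23 rose and 6 fell, and 10 members were part way back. The list's median against the control was -0.42 at day 2, -0.30 at day 4 and -0.34 at day 6. It holds genes lost in senescence, such as LMNB1, so the count of rises is no measure of senescence. LMNB1, the lamin B1 whose loss marks senescent cells, was 56.5, 44.98 and 51.9 CPM at day 2 and 89.4, 85.5 and 78.9 CPM at day 4, still under 217, 232 and 224 CPM in the control (log2 0.72 ± 0.09, edgeR adjusted p = 3.88e-07). CDKN2B (p15), a CDK4 inhibitor, newly fell from 97.2, 117 and 91.7 to 37.7, 39.2 and 32.2 CPM (log2 -1.49 ± 0.10, edgeR adjusted p = 2.24e-11). HMGA2, a chromatin protein, rose further from 239, 213 and 242 to 393, 411 and 399 CPM over a control mean of 127 ± 13.3 CPM (log2 0.79 ± 0.08, edgeR adjusted p = 3.46e-08), with HMGA2-AS1 on the opposite strand. LMNA came part way back down by 0.88 ± 0.09.

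ATF4-response genes fell in 29 of 39 cases with 1 higher, VLDLR, and a median of -0.54. Of the 29, 18 moved further below the control, 4 newly differed from it, 4 passed it, 1 returned to it and 2 were in no class. ATF4 itself was 579.7, 671 and 588 CPM in the control, 436, 378 and 361 CPM at day 2 and 347, 306 and 305 CPM at day 4 (log2 -0.30 ± 0.08, edgeR adjusted p = 0.00787). That call ended with library totals alone (log2 -0.21, edgeR adjusted p = 0.0554) and without day 2 replicate 1 (log2 -0.22, edgeR adjusted p = 0.0681). SLC3A2, the heavy chain that SLC7A5 and SLC7A11 share, went from 166, 143 and 176 to 51.1, 48.5 and 55.99 CPM and passed the control at 133, 142 and 125 CPM (log2 -1.64 ± 0.09, edgeR adjusted p = 8.69e-13). ATF3 passed the control too, from 206, 204 and 204 to 61.5, 58.6 and 60.1 CPM around 102, 97.4 and 85.02 CPM (log2 -1.77 ± 0.08, edgeR adjusted p = 3.09e-14). DDIT3 (CHOP), a factor of stress-induced death whose locus overlaps MARS1, fell by 1.24 ± 0.11. ASNS, asparagine synthetase, was 3.07, 2.81 and 3.78 CPM and 1.47, 2.52 and 2.47 CPM and did not pass the test (log2 -0.58 ± 0.24, edgeR adjusted p = 0.0599).

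Cholesterol and fatty acid synthesis genes also moved away from the control, with 20 of 34 lower, 1 higher and a median of -0.38, and 13 of the 20 further below. HMGCS1, which makes HMG-CoA, was 458, 431 and 519.8 CPM in the control, 246, 241 and 228 CPM at day 2 and 172, 174 and 154 CPM at day 4 (log2 -0.52 ± 0.08, edgeR adjusted p = 1.53e-05). SCD, the stearoyl-CoA desaturase, went from 974, 1141 and 1043 to 509, 594 and 504 CPM (log2 -0.97 ± 0.09, edgeR adjusted p = 5.08e-09). ELOVL6, a fatty acid elongase, was the member that rose, from 26.1, 26.4 and 27.8 to 45.2, 45.1 and 39.2 CPM (log2 0.69 ± 0.09, edgeR adjusted p = 1.63e-06). NRF2 and antioxidant genes were lower in 16 of 34 cases and higher in 4, or higher in 2 without day 2 replicate 2, day 4 replicate 1 or day 4 replicate 3. Those lower included HMOX1, haem oxygenase, newly lower by 0.50 ± 0.11 and AKR1B10, an aldo-keto reductase, down from 9.88, 10.3 and 10.8 to 1.36, 1.98 and 2.14 CPM (log2 -2.50 ± 0.23, edgeR adjusted p = 4.83e-09).

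Ribosome biogenesis genes fell in 28 of 34 cases and rose in 1, with a median of -0.38. POLR1A, the large subunit of RNA polymerase I, returned from 129, 138 and 166 to 77.9, 81.3 and 78.6 CPM with a control mean of 83.4 ± 6.65 CPM (log2 -0.87 ± 0.09, edgeR adjusted p = 6.60e-08), and DDX21, a nucleolar helicase, passed its control mean of 481 ± 25.6 CPM, from 676, 609 and 672 to 325, 327 and 313 CPM (log2 -1.02 ± 0.07, edgeR adjusted p = 8.14e-11). MYC, which drives this programme, moved further down, from 97.3, 101 and 98.3 to 46.3, 47.6 and 56.2 CPM (log2 -0.98 ± 0.11, edgeR adjusted p = 1.07e-07). Ribosomal proteins themselves fell in 14 of 73 cases, near the share of all genes. That count was 4 without day 2 replicate 1 or day 4 replicate 2, 7 without day 2 replicate 2 and 6 without day 4 replicate 3. It was 1 with library totals alone and 40 without the control and day 2 libraries that stood furthest from their groups in mitochondrial share (control replicate 2 and day 2 replicate 3).

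Genes of the extracellular matrix and of contractile smooth muscle fell. In the matrix list 26 of 40 fell and 5 rose (median -0.43), and in the smooth muscle list 11 of 15 fell and none rose (median -0.81). In the smooth muscle list 2 genes were higher without control replicate 2 or with library totals alone. COL1A1, the main fibrillar collagen chain, returned from 4606, 4697 and 4284 to 2813, 2916 and 2653 CPM beside 2319, 2772 and 2655 CPM (log2 -0.70 ± 0.08, edgeR adjusted p = 5.50e-07), and COL3A1 passed its control of 964, 877 and 943 CPM, from 1193, 1111 and 1270.2 to 529.8, 535 and 466 CPM (log2 -1.22 ± 0.08, edgeR adjusted p = 2.28e-11). DCN, the proteoglycan decorin, newly fell from 112, 123 and 117 to 49.1, 49.3 and 38.8 CPM (log2 -1.36 ± 0.09, edgeR adjusted p = 2.79e-11). CALD1, caldesmon, returned from 2171, 2049 and 2133 to 897, 890.4 and 897 CPM with a control mean of 929 ± 59.6 CPM (log2 -1.24 ± 0.07, edgeR adjusted p = 3.62e-12). ACTA2, smooth muscle actin, was 88.2, 82.5 and 79.6 CPM and 95.8, 95.8 and 92.7 CPM and did not pass the test (log2 0.18 ± 0.09, edgeR adjusted p = 0.123), but it overlaps FAS on the opposite strand. Smooth muscle markers summed to 5231 to 5495 CPM at day 2 and 3091 to 3265 CPM at day 4, and the part of cell composition in these falls was not tested.

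TGF-beta response genes were lower in 18 of 28 cases and higher in 4 (median -0.49), or higher in 2 without day 2 replicate 2, day 4 replicate 2 or day 4 replicate 3. TGFB2, a ligand, passed its control of 217, 168 and 206 CPM, from 251, 265 and 268 to 80.4, 105 and 76.1 CPM (log2 -1.58 ± 0.11, edgeR adjusted p = 7.44e-11), BAMBI, a decoy receptor, passed its own by a fall of 1.48 ± 0.12, and CCN2, a matricellular target, went further down from 781, 659.6 and 781 to 277, 349 and 285 CPM (log2 -1.29 ± 0.09, edgeR adjusted p = 6.59e-11). Notch genes fell in 8 of 12 cases with none higher (median -0.99). This median was -0.68 with no low-count filter or without day 4 replicate 1, and -1.36 with a filter of at least 1 CPM in 3 libraries. The ligand JAG1 came part way back, from 125, 129 and 140.5 to 29.4, 31.6 and 35.02 CPM over 12.5, 11.6 and 16.8 CPM (log2 -2.04 ± 0.11, edgeR adjusted p = 3.95e-13), and the receptors NOTCH1 and NOTCH3 returned with falls of 0.74 ± 0.11 and 0.77 ± 0.15. Epithelial markers summed to 289 to 318 CPM at day 2 and 93.9 to 123 CPM at day 4, and KRT18, a keratin overlapped by KRT8, went from 202, 178 and 200.1 to 47, 46.1 and 61.9 CPM (log2 -1.90 ± 0.11, edgeR adjusted p = 2.96e-12).

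Of the genes tied to cardiac stress 15 of 27 fell and 2 rose. NPPB, the natriuretic peptide BNP, was 9.78, 5.82 and 7.45 CPM at day 2 and 0.905, 0.6 and 2.36 CPM at day 4, near the control at 0.908, 0.722 and 0.925 CPM (log2 -2.56 ± 0.30, edgeR adjusted p = 4.22e-07). The third day 4 library lay above the others, but none reached day 2. ANKRD1, a stretch-responsive cofactor, came part way back from 34.9, 20.5 and 34.95 to 12.1, 12.3 and 18.2 CPM (log2 -1.09 ± 0.20, edgeR adjusted p = 3.37e-04), and RCAN1, the calcineurin regulator, moved further down from 325, 318 and 318 to 144, 148 and 156 CPM (log2 -1.10 ± 0.08, edgeR adjusted p = 6.79e-11). GATA6, a heart and endoderm factor, passed its control mean of 54.97 ± 2.11 CPM, from 81.04, 75.98 and 75.6 to 35.4, 33.6 and 35.96 CPM (log2 -1.15 ± 0.08, edgeR adjusted p = 6.79e-11). Only 11 of 28 sarcomere genes had enough reads to be tested, and 5 fell and 1 rose. The sarcomere genes that fell were 3 without control replicate 3 or day 2 replicate 3 and 2 without day 4 replicate 2, and none rose without any 1 of the day 2 libraries, day 4 replicate 1 or day 4 replicate 2. Immediate early genes fell in 18 of 34 cases and rose in 4 (median -0.51), with KLF4 passing its control of 22.4, 21.1 and 18.3 CPM, from 54.4, 48.9 and 51.05 to 12.1, 11.9 and 12.8 CPM (log2 -2.07 ± 0.10, edgeR adjusted p = 1.69e-13).

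Nuclear genes of oxidative phosphorylation were higher in 4 of 54 cases and lower in 3, both shares under those of all genes, and with library totals alone 11 were higher. Those higher were 7 without control replicate 2 or day 2 replicate 1, 2 without day 2 replicate 3, and 1 without day 2 replicate 2 or day 4 replicate 1. Of 13 mitochondrially encoded genes 1 was higher, MT-ND4L, and 2 were higher without day 2 replicate 1. Glycolysis and hypoxia genes fell in 14 of 37 cases and rose in 4, with NDRG1, a hypoxia-induced protein, part way back from 501, 547 and 519.8 to 145, 135 and 238 CPM (log2 -1.60 ± 0.15, edgeR adjusted p = 1.20e-06). ER chaperones split into 6 higher and 7 lower of 26, and HSPA5 (BiP) returned from 1043, 871 and 951 to 670.4, 599 and 694 CPM (log2 -0.55 ± 0.08, edgeR adjusted p = 9.41e-06). Cytosolic heat shock genes fell in 8 of 20 cases and rose in 1, or in 2 without control replicate 2 or day 2 replicate 1 and none without day 2 replicate 2. Lysosome and autophagy genes were higher in 9 of 37 cases and lower in 5, or 15 and 2 with library totals alone. Without control replicate 2, 14 were higher, and the genes lower were 2 without day 2 replicate 2 and 3 without day 2 replicate 3, day 4 replicate 1 or day 4 replicate 2. CTSS, a cathepsin, rose from 2.52, 2.26 and 2.52 to 8.71, 10.3 and 9.99 CPM (log2 1.98 ± 0.18, edgeR adjusted p = 4.23e-09). Genes of topoisomerases and anthracycline handling fell in 10 of 26 cases and rose in 4, or in 2 without day 2 replicate 2 or day 4 replicate 1, with ABCC3, a drug efflux pump, back at the control level after a fall of 1.66 ± 0.18.

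**Figure D5:**
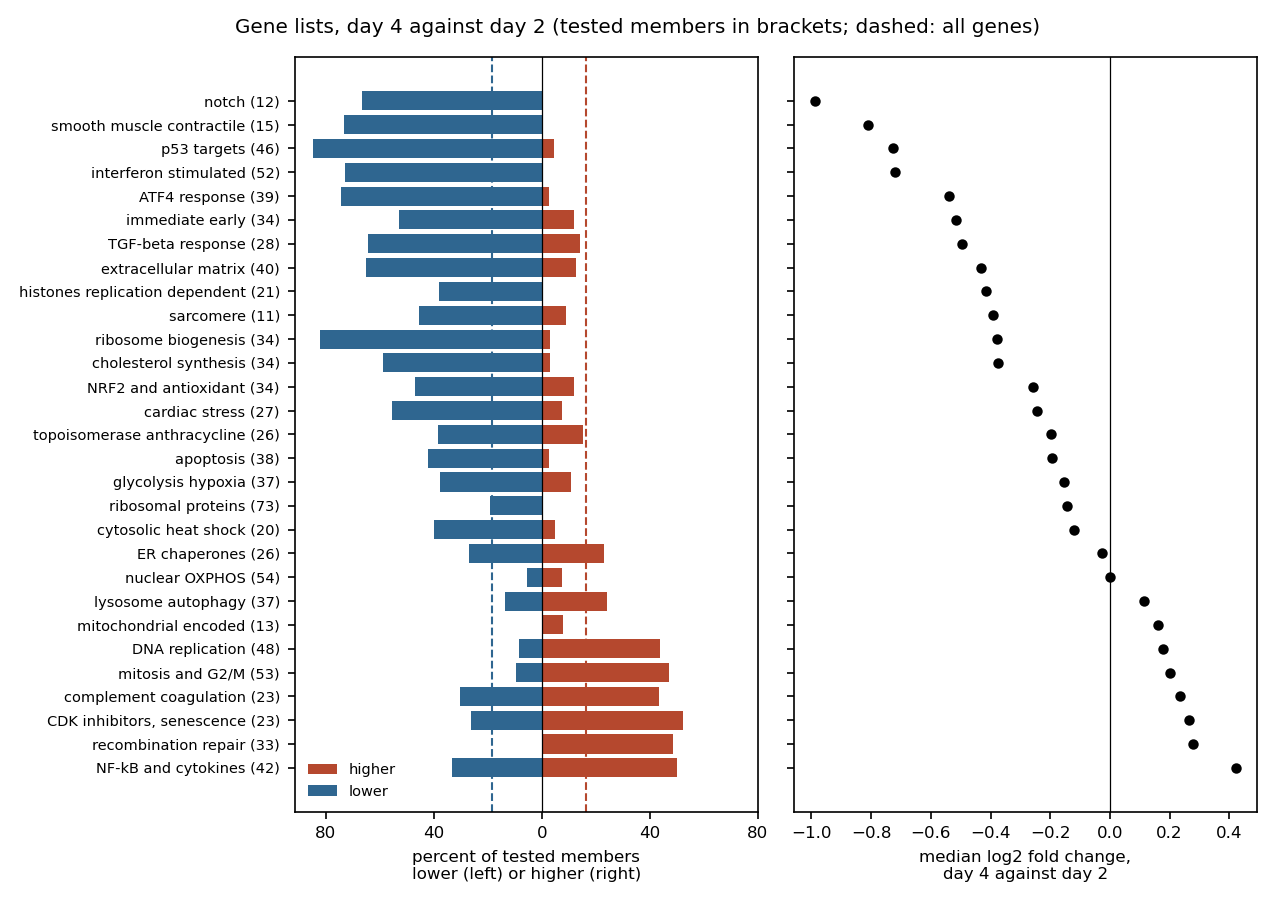
Percent of tested members of each gene list that were higher (red, right) or lower (blue, left) at day 4 than at day 2, with the share over all genes as dashed lines, and the median log2 fold change of each list on the right. Lists at the top, Notch, smooth muscle, p53 targets and interferon, fell in 8 of 12 to 39 of 46 members, and NF-kB and cytokines at the bottom have both bars past the dashed lines.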

How the data were processed

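Messenger RNA of 12 libraries was sequenced. Per the labels' protocols, libraries were made with a NEBNext Ultra RNA kit from total RNA. The authors deposited raw counts per gene, 1 column per library, as whole numbers with no normalization. Their processing notes name fastp 0.23.2, Trimmomatic 0.38, STAR 2.7.8, HTSeq 0.13.5 and the build GRCh38.p13, without roles or order. The annotation release and the strand setting are not given in the sources used here.

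Genes were kept by filterByExpr (4 groups, minimum count 10, minimum total 15), scaled by TMM, and fitted over all 12 libraries in edgeR 4.0.16 (R 4.3.3) with robust glmQLFit and 8 residual degrees of freedom, then tested with glmQLFTest. The SE is the absolute log2 fold change divided by the square root of F. Of the 17320 genes tested, 15394 had a symbol and 17099 a position in GENCODE 29 (GRCh38), used for overlaps. The common biological coefficient of variation was 0.0887. No pair of libraries had counts close enough to be copies. The procedure was tested on simulated data. Promoter sequences were matched by symbol. Figures were drawn with matplotlib 3.10.9.

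The classes, the 35 gene lists and the genes named were chosen with earlier results of these data known. Named genes were the 4 with the largest change in each class and direction (no overlap of libraries, ordinary symbol, and 10 CPM or more on average at day 2 or day 4), up to 4 members with the smallest p in each list, and a fixed panel. Other list members given with values were chosen after their values were seen. Some results are not reported here. Alternatives were DESeq2 1.42.0 and its size factors, library totals, other filters and fits of fewer groups. Further ones were other limits and thresholds and the replicate number as a block. Each control, day 2 and day 4 library was also left out in turn, but no day 6 library was. A fit without control replicate 2 and day 2 replicate 3, whose mitochondrial shares stood apart, was chosen after seeing the data.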

Additional observations from a re-analysis of the deposited data

Results flagged for a closer look

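The 8 named genes that passed the control level were chosen as differing from it on opposite sides at day 2 and day 4. They were also chosen for no overlap between the libraries of those groups. Every day 2 library lay on one side of the control mean and every day 4 library on the other, which this choice largely fixed. The difference between the exposures is the day 4 against day 2 test itself. On the log2 scale SLC12A8 differed by -3.06, OLR1 by -2.57, DEPTOR by -2.48 and SCN3A by -2.30, while RFX8 differed by 2.99, ABI3BP by 2.69, SFRP1 by 1.74 and VEPH1 by 1.69.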

How the results depend on the processing

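Across 22 settings, 263 of 278 counts of changed genes and of classes stayed within 1.5 times the reported one. These include counts that could not move. Under limits of 1.2-fold and 2-fold, only the genes returned or in no class could differ, and the other class counts were fixed. DESeq2 called 2682 genes higher and 3172 lower. Leaving out 1 control, day 2 or day 4 library at a time gave 2254 to 3211 higher and 2656 to 3467 lower. In these fits 67 to 104 genes passed the control upward and 266 to 559 genes higher at day 4 were in no class. Downward, 107 to 142 genes passed the control and 321 to 622 genes lower at day 4 were in no class. With library totals alone, 690 genes were part way back upward and 165 had passed the control upward. At an adjusted p under 0.01 the counts were 225 higher and 489 lower part way back, 41 and 74 passed, 130 and 112 further, and 328 newly higher. With a minimum of 1.5-fold by glmTreat, 326 genes were higher and 702 lower, which demands more of each gene by construction. The cause of the other shifts was not tested. With 2 libraries left out for their mitochondrial share, 2863 genes were higher and 3264 lower.

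The replicate numbers were not shown to pair the libraries: the correlations of the 18 same-numbered pairs ran from -0.171 to 0.0963, none over 0.1. With the replicate number as a block, 2645 genes were higher and 3035 lower. Of 16938 values of single genes under an alternative, 512 lost the call, 298 gained it and none reversed. Single genes were not followed at the other fold limits, at an adjusted p under 0.01, under glmTreat or without the day 6 group. In the settings that followed them, the calls of ATF4, KIF18A and RRM2B ended, among the genes the report names as changed.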
